A study of Mus musculus with 32 samples.

Results

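Astrocytes of the spinal cord handle water, potassium and small solutes through a small set of membrane proteins, and the genes of that set were followed here: Aqp4, Kcnj10, Kcnj16, Gja1, Gjb6, Atp1b2 and Aldh1l1. They were chosen by name, with earlier results of these data known, and all 7 were found among the 42524 genes of the count table. Bulk RNA-seq had been made from the spinal cord of 32 mice, 4 in each of 8 groups. The SOD1 G93A mouse (line B6-Tg(SOD1-G93A)1Gur/J) carries a human mutant SOD1 transgene under its own promoter and is a model of amyotrophic lateral sclerosis. The controls were wild-type (WT) littermates on the same C57BL/6J background. Mice of either genotype were left untreated or received OKN-007, a nitrone compound with antioxidant properties, in the drinking water. The labels give ages of 90 and 155 days, and the later age precedes end stage. The study's methods put the earlier collection, near the onset of symptoms, some days later than the labels do, and the labels' age is used here. Groups thus were WT untreated, WT OKN-007, G93A untreated and G93A OKN-007 at each age. The labels name neither the sex of a mouse, the segment of the cord nor the dose. In the methods, the cohorts collected near these ages received the higher of the study's doses, a part of the study done in females. Treatment of those collected at 155 days began either in young mice or at onset, and which of these cohorts was sequenced is not given in the sources used here.

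As background, aquaporin-4 (Aqp4) is the water channel of the astrocyte endfeet that wrap vessels, where the dystrophin complex anchors it. Kcnj10 encodes Kir4.1, the inward rectifier by which astrocytes take up the potassium that firing neurons release, and Kcnj16 encodes Kir5.1, which forms channels together with Kir4.1. The sodium pump, whose beta-2 subunit is Atp1b2, takes up potassium as well. Connexin 43 (Gja1) and connexin 30 (Gjb6) form the gap junctions that let potassium and metabolites spread from one astrocyte to the next. Aldh1l1, a cytosolic enzyme of folate metabolism, carries no ion or water but is a widely used label of astrocytes.

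The set of RefSeq start sites used here (GRCm38.p6) holds entries for 5 of the genes. The 150 bases before the start are shown for the 4 genes with a single start site, of which Aldh1l1 and Gja1 rose in late G93A mice while Kcnj10 and Gjb6 did not pass the test. Sequences run from 5′ to 3′ on the strand of the gene, and capitals mark the matches to the motifs searched.
Aldh1l1: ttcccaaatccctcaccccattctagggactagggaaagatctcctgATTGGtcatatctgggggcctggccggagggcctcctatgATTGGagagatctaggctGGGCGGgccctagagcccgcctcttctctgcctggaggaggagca
Gja1: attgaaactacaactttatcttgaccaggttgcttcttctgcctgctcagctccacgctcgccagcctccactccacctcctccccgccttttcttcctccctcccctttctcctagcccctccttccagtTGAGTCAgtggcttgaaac
Kcnj10: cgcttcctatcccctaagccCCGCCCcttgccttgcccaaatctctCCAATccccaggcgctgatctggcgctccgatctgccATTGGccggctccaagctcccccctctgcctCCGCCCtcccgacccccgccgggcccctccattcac
Gjb6: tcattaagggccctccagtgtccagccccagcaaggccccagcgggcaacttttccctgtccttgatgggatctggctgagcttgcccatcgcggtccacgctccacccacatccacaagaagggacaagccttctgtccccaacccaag
These windows lie at chr6:90550643-90550792 (plus strand), chr10:56377150-56377299 (plus strand), chr1:172341060-172341209 (plus strand) and chr14:57133612-57133761 (minus strand). The Aldh1l1 window falls inside the annotated gene, which begins further upstream. Motifs were searched on both strands, and their background is the share of 32851 RefSeq windows of the same length that held them. The AP-1 motif, with the letters TGANTCA, was present in 4.24% of windows. The STAT motif, TTCNNNGAA, was present in 4.09%. The GC box, with the letters GGGCGG, was present in 28.6%, and the box named CCAAT after its letters in 24.5%. The TATA box, searched as TATAAA, was present in 7.57%. Aldh1l1 held 1 GC box and 2 CCAAT boxes, Kcnj10 held 2 of each, Gja1 held a single AP-1 match from 19 to 13 bases before the start, and Gjb6 held no match to these letters. Kcnj16 has 4 start sites, whose windows are not shown: one held a TATA box, one held a GC box and a CCAAT box, and the others held no match. No 2 matches overlapped. The motifs were picked with the expression values known, and a match is a string of letters, not a measured binding site.

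Libraries held 19701722 to 30138257 counts per mouse (median 26658755), and levels are CPM, the counts of a gene relative to the library total after TMM scaling over all 32 mice. The lowest value of any of the 7 genes in any mouse was 39.8 CPM (Kcnj16), against 0.152 CPM for 3 counts in the smallest library, so low counts did not limit these genes. Human SOD1 has no row of its own in the table, and mouse Sod1 (251 ± 18 CPM in G93A untreated against 277 ± 39.6 in WT untreated mice of 155 days, SD, n = 4 each) does not check the genotype labels. Gfap, the filament protein of reactive astrocytes, was 11262 ± 1857 against 2196 ± 217 CPM, and Aif1, a microglial gene, was 31.8 ± 10.4 against 5.05 ± 1.03 CPM (SD, n = 4 each), with no overlap of the groups. Some libraries stood apart in markers of other tissue. The summed level of 4 Schwann cell markers was 1135 CPM in WT untreated replicate 3 of 90 days and 206 CPM in G93A untreated replicate 10 of 90 days, against 1.98 to 36.6 CPM elsewhere. The summed level of 5 liver markers was 181 CPM in G93A untreated replicate 12 and 122 CPM in G93A OKN-007 replicate 15, both of 155 days. Leaving out any of these 4 mice changed no call on the 7 genes. Nothing in the labels says whether mice of a group shared a litter or cage.

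At 155 days, Aqp4, Aldh1l1, Atp1b2 and Gja1 were higher in G93A than in WT mice, with and without OKN-007, and Kcnj10, Kcnj16 and Gjb6 did not pass the test. Aqp4 changed most, to 2.43-fold in untreated and 2.91-fold in treated mice. Per kilobase of exon, Aqp4 lay below Kcnj10 in the median WT mouse (87.1 against 116 CPM per kb, n = 16) and above it in the median late G93A mouse (214 against 117 CPM per kb, n = 8). In untreated mice 4 of 7 genes passed (adjusted p under 0.05, Benjamini-Hochberg over 18675 genes, edgeR's quasi-likelihood test), all higher. Of all genes tested, 39.5% passed in either direction and 21.3% were higher. In OKN-007 mice the same 4 genes of 7 passed, all higher, where 41.5% of genes passed and 23.3% were higher. The median log2 fold change of the 7 genes was 0.44 untreated and 0.46 treated, against 1.5e-04 and 0.018 over all genes. As the 7 were picked with earlier results of these data known, this comparison is a description. Since this is bulk tissue, more RNA per astrocyte and a change in the share of astrocytes cannot be told apart.

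**Figure D1:**
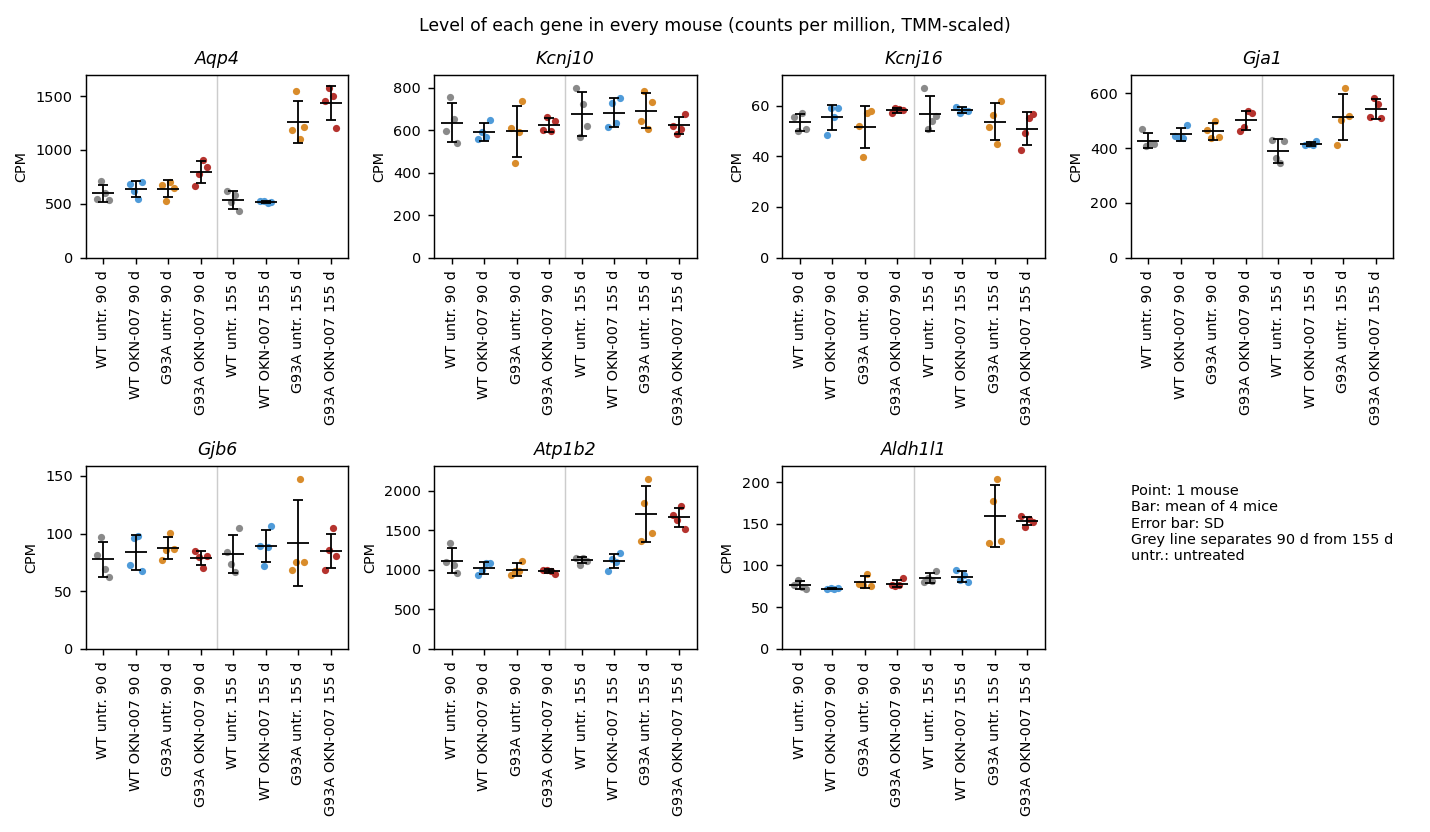
Level of each of the 7 genes in every mouse, as TMM-scaled CPM on an axis from 0, in the 8 groups; points are single mice, bars the mean of 4 mice and error bars the SD. All 8 G93A mice of 155 days sit above the other 24 mice for Aqp4, Atp1b2 and Aldh1l1, and none does for Kcnj10 and Kcnj16.

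Aqp4 (chr18:15389496-15410982, minus strand, GRCm38) gave the clearest separation. The WT untreated mice of 155 days had 618, 518, 577 and 431 CPM, and the G93A untreated mice had 1186, 1544, 1101 and 1212 CPM. With OKN-007 the WT mice had 522, 527, 505 and 518 CPM and the G93A mice 1453, 1575, 1499 and 1206 CPM. The lowest late G93A mouse thus lay above the highest of the 24 other mice (908 CPM), and the 4 treated WT mice lay closer together than any other group (CV 1.83%). The log2 fold change was 1.28 (SE 0.11, 95% interval 1.05 to 1.51, edgeR adjusted p = 3.20e-08) in untreated and 1.54 (SE 0.11, 1.31 to 1.77, edgeR adjusted p = 2.37e-09) in treated mice. Of all genes tested, 93.6% had a smaller log2 fold change than Aqp4 in untreated and 94.5% in treated mice. A non-coding gene on the opposite strand, AC133525.2, overlaps Aqp4. It was counted at 0.432 to 2.11 CPM across the group ranges, with group means of 0.721 in WT untreated and 1.72 CPM in G93A untreated mice of 155 days. The strand setting of the counting is not given in the sources used here, so reads of the 2 genes may be shared, at a level far under that of Aqp4.

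Genes of the dystrophin complex, which holds aquaporin-4 at the endfoot, and other water channel genes moved in both directions. Of the 15 genes listed for the dystrophin complex and other water channels, 14 were tested in untreated mice of 155 days, 4 were higher and 3 lower, beside 21.3% higher and 18.2% lower over all genes, and the median log2 fold change was 0.14. Dtna, alpha-dystrobrevin, rose by 0.18 (edgeR adjusted p = 0.0472) and Dag1, dystroglycan, by 0.37 (edgeR adjusted p = 0.00371). Dtnb and Utrn, coding for beta-dystrobrevin and utrophin, fell by 0.31 each on the log2 scale (edgeR adjusted p = 0.00641 and 0.0352). Among other aquaporins, Aqp9 rose by 0.70 from 2.22 to 3.49 CPM, Aqp11 fell by 0.45 from 11.5 to 8.15 CPM, and Aqp1 was too low to be tested. With OKN-007 the counts were again 4 higher and 3 lower of 14, but Dtna (0.13, edgeR adjusted p = 0.143) was then not among those that passed.

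Kcnj10 and Kcnj16 were not past the threshold in any comparison. Kcnj10 (chr1:172341210-172374085, plus strand) was at 799, 570.4, 723 and 621 CPM in WT untreated mice and at 642, 787, 607 and 735 CPM in G93A untreated mice of 155 days. In the treated mice it was at 617, 729.5, 635 and 754 CPM (WT) and 622, 583, 608 and 679 CPM (G93A). The groups overlapped in both pairs, and the log2 fold changes of 0.08 (95% interval -0.13 to 0.29) and -0.06 (-0.27 to 0.15) did not pass (edgeR adjusted p = 0.568 and 0.669). On the linear scale these intervals reach from 0.831-fold to 1.22-fold. Kcnj16 (chr11:110968033-111027968, plus strand) gave -0.04 (-0.25 to 0.18) in untreated and -0.12 (-0.34 to 0.09) in treated mice (edgeR adjusted p = 0.813 and 0.373). In the treated mice its 4 G93A values, 42.3 to 56.8 CPM, all lay below the 4 WT values, 57.0 to 59.7 CPM, although the fit did not call it.

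Within each mouse, the ratio of Aqp4 to Kcnj10 therefore shifted. On the log2 scale it was -0.52 to -0.14 in WT untreated and -0.54 to -0.24 in WT OKN-007 mice of 155 days, so Aqp4 had fewer counts than Kcnj10 in all 8. In the G93A mice it was 0.72 to 0.97 untreated and 0.83 to 1.43 with OKN-007. The difference of the means, 1.20 and 1.59, is a description, because this pair was picked after the levels were known. A two-sided exact permutation test of it gave p = 0.0286 in both comparisons, the smallest that 4 against 4 mice allow, and 0.0571 after adjustment over 4 such tests, and is not used as support. At 90 days the means ran from -0.09 in WT untreated to 0.34 in G93A OKN-007 mice.

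**Figure D2:**
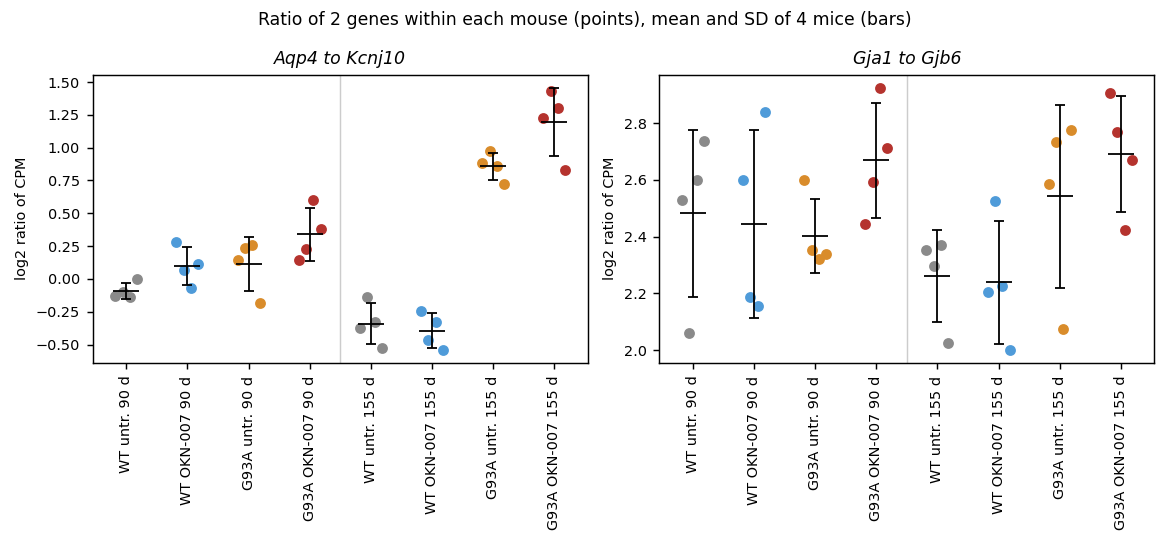
Log2 ratio of the CPM of 2 genes within each mouse, for Aqp4 to Kcnj10 and Gja1 to Gjb6, by group; points are mice, bars the mean and SD of 4. The Aqp4 to Kcnj10 ratio is 0.72 to 1.43 in the 8 G93A mice of 155 days and below 0 in all 8 WT mice of that age, whereas the Gja1 to Gjb6 ratios overlap.

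Both Kir genes have a neighbour of the same gene family. Kcnj9 lies 11.9 kb from Kcnj10 on chromosome 1, and its level is not reported here. Kcnj2, which encodes Kir2.1, lies 38.2 kb from Kcnj16 on chromosome 11 and was at 24.6 ± 3.86 against 10.2 ± 0.702 CPM in G93A and WT untreated mice (SD, n = 4 each). This was a rise of 1.32 on the log2 scale (SE 0.11, edgeR adjusted p = 2.39e-08). An inward rectifier gene beside Kcnj16 thus rose, while Kcnj16 did not pass.

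Atp1b2 (chr11:69599736-69605942, minus strand), the beta-2 subunit of that pump and an adhesion molecule of glia, rose. Its level was 1145, 1066, 1149 and 1116 CPM in WT untreated and 1370.4, 1843, 2144 and 1463 CPM in G93A untreated mice of 155 days. In treated mice the values were 990.5, 1142, 1101 and 1212 CPM (WT) and 1692, 1632, 1807 and 1518 CPM (G93A). Neither pair of groups overlapped, and the spread was larger in G93A untreated mice (CV 20.9%) than in G93A OKN-007 mice (7.24%). The log2 fold change was 0.65 (SE 0.10, 0.43 to 0.87, edgeR adjusted p = 7.28e-05) untreated and 0.66 (SE 0.10, 0.44 to 0.88, edgeR adjusted p = 5.57e-05) treated.

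The beta subunits of the pump moved apart. Atp1b1, a beta subunit that neurons also use, fell by 0.66 on the log2 scale, from 2406 ± 158 to 1469 ± 234 CPM (SD, n = 4 each, edgeR adjusted p = 9.32e-05). Over the 23 genes listed for potassium uptake and the sodium pump, 7 were higher and 9 lower in untreated mice, with a median of -0.21, and 8 were higher and 9 lower in treated mice. Over all genes 21.3% were higher and 18.2% lower in untreated, and 23.3% and 18.2% in treated mice. The largest rise was that of Fxyd1, phospholemman, a regulator of the pump, at 164 ± 52.9 against 46.2 ± 10.5 CPM (SD, n = 4 each, log2 fold change 1.87, edgeR adjusted p = 3.28e-07). Mlc1, a membrane protein of astrocyte junctions, rose by 1.05 (edgeR adjusted p = 4.25e-07) and its partner Hepacam, or GlialCAM, by 0.44 (edgeR adjusted p = 6.14e-04).

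**Figure D3:**
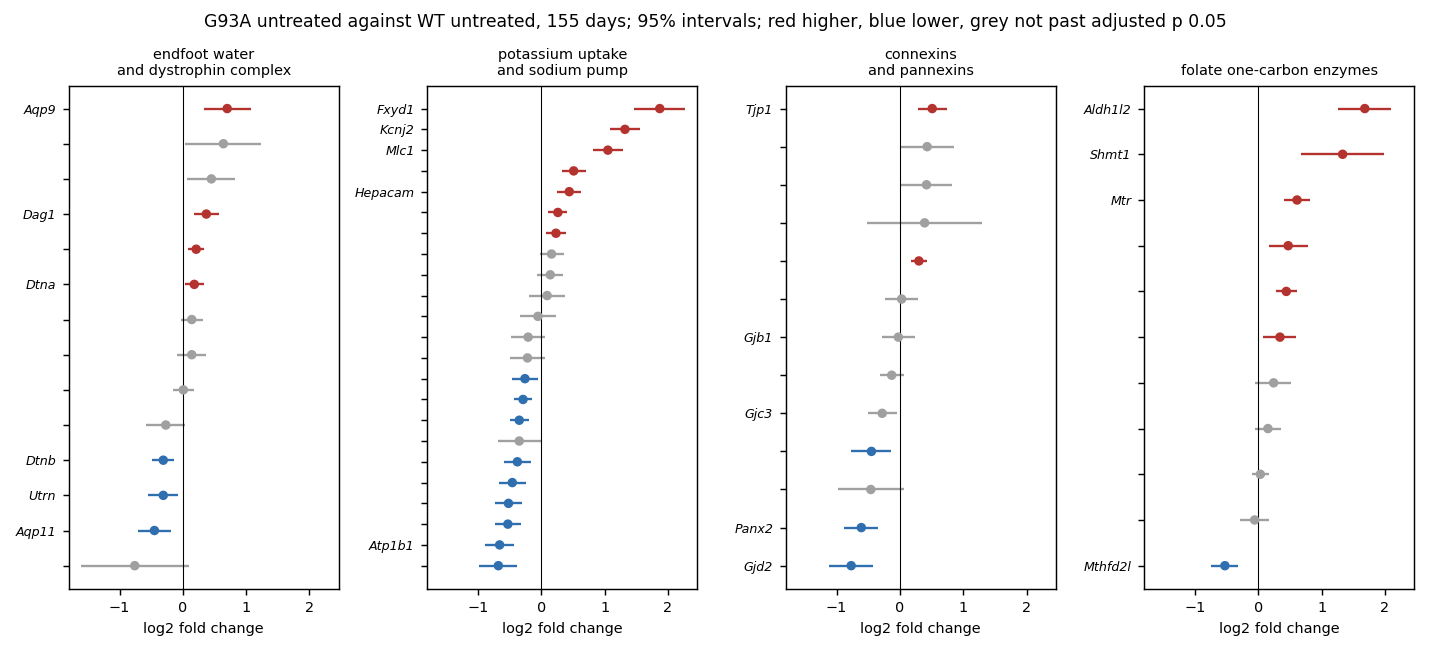
Log2 fold change with 95% interval of each tested gene of the 4 lists in G93A untreated against WT untreated mice of 155 days (n = 4 each). Labels mark genes named in the text. Red marks genes that were higher, blue those that were lower and grey those that did not pass; in the list of potassium uptake and the sodium pump Fxyd1 lies at 1.87 and Atp1b1 at -0.66.

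The 2 astrocyte connexins gave different results in the test. Gja1 (chr10:56377330-56402513, plus strand) was at 429, 363, 344 and 428 CPM in WT untreated and 413, 503, 619 and 517 CPM in G93A untreated mice of 155 days, so 1 of the 4 G93A mice lay within the WT range. With OKN-007 it was at 410.1, 417, 412 and 427 CPM in WT and 515, 584, 560.0 and 511 CPM in G93A mice, with no overlap. The log2 fold change was 0.44 (SE 0.096, 0.23 to 0.64, edgeR adjusted p = 0.00141) and 0.46 (SE 0.096, 0.25 to 0.66, edgeR adjusted p = 8.60e-04). This is the smallest of the 4 rises, and only 3 of the 8 late G93A mice lay above the highest of the other 24 mice (534 CPM). Gjb6 (chr14:57123303-57133611, minus strand) was at 84.1, 73.7, 66.6 and 105 CPM in WT untreated and 68.7, 75.6, 147 and 75.6 CPM in G93A untreated mice. Its fold change rested on the third of these mice, replicate 11: the log2 value was 0.20 (SE 0.20, edgeR adjusted p = 0.471) with that mouse and -0.12 (edgeR adjusted p = 0.589) without it. In treated mice it was 0.0046 (-0.42 to 0.43). The log2 ratio of Gja1 to Gjb6 averaged 2.54 against 2.26 in untreated and 2.69 against 2.24 in treated mice, with 3 of 4 G93A mice above all WT mice in each. The exact permutation test of this ratio, also of a pair picked after the levels were known, gave p = 0.171 and 0.0571 (0.171 and 0.0762 adjusted over the 4 tests).

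Of 13 genes listed for connexins, pannexins and junction scaffolds, 2 were higher and 3 lower in untreated mice (3 and 3 in treated mice), a share near that of all genes (39.5% and 41.5% past the threshold). Gjb1, a connexin of oligodendrocytes, was at 69.4 ± 11 against 72.9 ± 9.15 CPM (SD, n = 4 each) and did not pass (edgeR adjusted p = 0.896). Gjc3 did not pass in untreated mice (-0.28, edgeR adjusted p = 0.0578). Gjd2, the neuronal connexin 36, and Panx2, a neuronal pannexin, fell by 0.77 and 0.61 on the log2 scale (edgeR adjusted p = 0.0012 and 7.40e-04). Tjp1, the scaffold ZO-1 that binds connexin 43, rose by 0.51 (edgeR adjusted p = 0.0012).

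Aldh1l1 (chr6:90486427-90600203, plus strand) rose 1.92-fold in untreated and 1.87-fold in treated mice. WT untreated mice had 80.4, 85.3, 81.7 and 93.1 CPM and G93A untreated mice 127, 177, 203 and 129 CPM. In treated mice the values were 94.8, 82.3, 88.5 and 80.3 CPM (WT) and 159, 147, 156 and 152 CPM (G93A). The untreated G93A mice fell into a lower and a higher pair, while the 4 treated ones lay between 147 and 159 CPM. The log2 fold change was 0.94 (SE 0.11, 0.70 to 1.19, edgeR adjusted p = 2.88e-06) and 0.90 (SE 0.11, 0.66 to 1.14, edgeR adjusted p = 4.33e-06). Other non-coding genes overlap it, Gm15756 on the opposite strand and Gm45901 and Gm44236 on the same one, all at or near 0 in all mice (at most 0.286 CPM). Among 12 listed enzymes of folate metabolism, 11 were tested, 6 were higher and 1 lower in untreated mice (4 and 2 in treated mice), beside 39.5% and 41.5% of all genes past the threshold in either direction. Aldh1l2, the mitochondrial counterpart of Aldh1l1, rose by 1.68 from 13.2 ± 1.19 to 40.9 ± 14.3 CPM (SD, n = 4 each, edgeR adjusted p = 1.86e-06). Shmt1, a serine hydroxymethyltransferase, rose by 1.33 from 1.52 to 3.73 CPM, and Mtr, methionine synthase, by 0.61 (edgeR adjusted p = 0.00227 and 8.80e-05). Mthfd2l, a mitochondrial dehydrogenase of the pathway, fell by 0.53 (edgeR adjusted p = 3.53e-04).

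Groups did not overlap for 3 of the 7 genes in untreated mice of 155 days (33.3% of all genes tested) and for 5 in treated mice (45.4% of all genes), 4 of them higher and Kcnj16 lower. With the genotype difference averaged over both treatments, 4 of 7 passed, where 54.7% of all genes did. The averaged log2 fold changes were 1.41 for Aqp4, 0.92 for Aldh1l1, 0.65 for Atp1b2 and 0.45 for Gja1, and those of Gjb6, Kcnj10 and Kcnj16 were 0.10, 0.01 and -0.08.

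Markers of several cell types moved with genotype at the same age. Beside them, 21.3% of all genes were higher and 18.2% lower in untreated mice (23.3% and 18.2% in treated mice). Reactive astrocyte genes were higher in 8 of 8 and microglial genes in 9 of 9, with median log2 fold changes of 3.38 and 2.27 in untreated mice. Neuronal genes were lower in 7 of 7, and motor neuron genes in 7 of 8 untreated and 8 of 8 treated. Oligodendrocyte markers were higher in 1 of 7 in either comparison, and endothelial ones were past the threshold in 0 of 6 untreated and 2 of 6 treated, both lower. Of 10 general astrocyte markers, 5 were higher and 1 lower in untreated mice. Sox9, an astrocyte transcription factor, was at 123 ± 29.1 against 45.7 ± 5.35 CPM, while Slc7a10, an amino acid transporter, was at 98 ± 17.3 against 174 ± 7.33 CPM (SD, n = 4 each), and Aldoc, Glul, Fgfr3 and S100b did not pass. The summed level of the 10 was 5775 to 5975 CPM in WT untreated, 5604 to 6192 in WT OKN-007, 5846 to 7229 in G93A untreated and 5694 to 6023 CPM in G93A OKN-007 mice, so the groups overlapped, and no marker was at 0. In the same mice the summed level of the 8 reactive markers was 2105 to 2665, 1962 to 2338, 11651 to 17944 and 12808 to 16124 CPM. Microglial markers summed to 308 to 389 CPM in the WT mice and 1382 to 2469 CPM in the G93A mice, and neuronal ones to 3267 to 3854 and 1707 to 2673 CPM. Replicate 11 of the untreated G93A mice, with the highest astrocyte sum, was also highest of its group in Gja1, Gjb6, Atp1b2 and Aldh1l1 and lowest in Aqp4, Kcnj10 and Kcnj16. The part of these marker shifts in the rises of Aqp4, Aldh1l1, Atp1b2 and Gja1 was not tested.

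**Figure D4:**
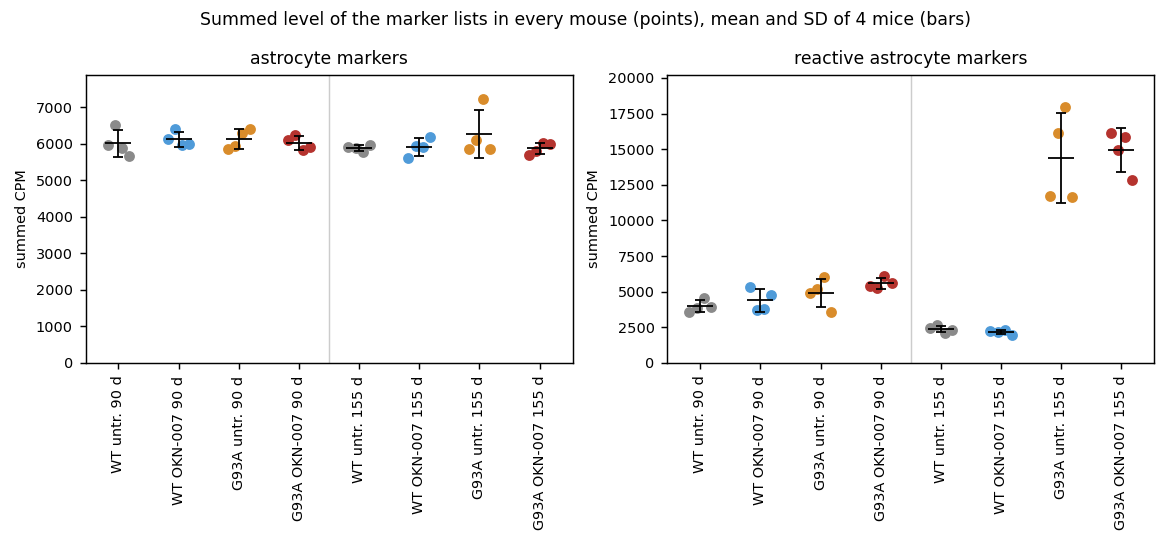
Summed CPM of 10 general and 8 reactive astrocyte markers in every mouse by group, on axes from 0; points are mice, bars the mean and SD of 4. The general markers lie between 5604 and 7229 CPM at 155 days in both genotypes, and the reactive ones between 1962 and 2665 CPM in WT and between 11651 and 17944 CPM in G93A mice.

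At 155 days 18.2% of all genes were lower in untreated and 18.2% in treated G93A mice. Of caudal Hox genes, whose levels follow position along the cord, 7 of 11 tested and 6 of 11 were lower. Their score (mean log2(CPM + 1) of 12 genes) was 1.52 to 2.80 in WT untreated and 0.287 to 1.54 in G93A untreated mice of 155 days, and 2.36 to 2.69 against 0.646 to 2.03 with OKN-007. The genotypes barely overlapped in this score when untreated and not at all with OKN-007. A fit with it as a covariate therefore cannot tell position along the cord from genotype. In that fit the 4 calls held in both comparisons. Gja1 then gave 0.61 and 0.63 and Aqp4 1.09 and 1.36. Gjb6 gave 0.62 and 0.42 (edgeR adjusted p = 0.0736 and 0.224), against 0.20 and 0.0046 without the covariate.

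At 90 days none of the 7 genes passed in any genotype comparison, by edgeR's quasi-likelihood test, its likelihood ratio test or DESeq2. Over all 18899 genes tested, 0% passed in untreated, 0% in treated mice and 0.0265% with the treatments averaged. At an unadjusted p under 0.05 the members numbered 0, 1 and 2, beside 1126, 747 and 1250 of the 18899 genes. Aqp4 was at 543, 708, 597 and 539 CPM in WT untreated and 675, 525, 706 and 650.3 CPM in G93A untreated mice, and at 681, 618, 543 and 703 against 662, 776, 908 and 838 CPM in WT and G93A OKN-007 mice. The groups overlapped in both pairs, with log2 fold changes of 0.12 (-0.11 to 0.36) and 0.32 (0.09 to 0.55) and an average of 0.22 (0.06 to 0.39, edgeR adjusted p = 0.571). Gja1 gave 0.13 and 0.15, with an average of 0.14 (0.03 to 0.25, edgeR adjusted p = 0.623). The averages of the remaining 5 genes ran from -0.10 (Atp1b2) to 0.10 (Aldh1l1), and Atp1b2 was thus not higher in G93A mice at this age in either comparison (-0.13 and -0.07).

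The difference between the ages was tested itself over all 32 mice. The G93A change at 155 days exceeded that at 90 days for Aqp4, Aldh1l1 and Atp1b2, 3 of 7 genes, in untreated mice, where 21.2% of 19829 genes passed, and for the same 3 in treated mice, where 23% passed. On the log2 scale the differences were 1.15, 0.84 and 0.77 in untreated (edgeR adjusted p = 4.68e-06, 4.32e-05 and 1.99e-04) and 1.19, 0.75 and 0.69 in treated mice (edgeR adjusted p = 2.42e-06, 1.68e-04 and 6.95e-04). For Gja1 they were 0.29 and 0.27 and did not pass (edgeR adjusted p = 0.086 and 0.105), so its rise at 155 days was not shown to be larger than that at 90 days. Kcnj10 gave 0.14 and -0.17, Kcnj16 -0.02 and -0.22, and Gjb6 -0.01 and 0.06.

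Between 90 and 155 days, none of the 7 genes passed in WT untreated mice (24.9% of all genes passed). Log2 fold changes ran from -0.15 (Aqp4) to 0.17 (Aldh1l1). At an unadjusted p under 0.05, 0 of 7 passed, beside 7338 of 19829 genes. DESeq2 and the likelihood ratio test also called 0. In G93A untreated mice 3 passed (33.7% of all genes): Aldh1l1 rose by 1.01 (0.80 to 1.21), Aqp4 to 2-fold (95% interval of the log2 value 0.76 to 1.24) and Atp1b2 by 0.78 (0.57 to 0.99), with edgeR adjusted p = 1.95e-09, 4.84e-08 and 3.99e-07. Kcnj10 gave 0.24 and Gja1 0.17 in these mice and did not pass (edgeR adjusted p = 0.106 and 0.122). Mice of different ages were separate animals, so age and cohort cannot be told apart. The mitochondrial share of counts was 5.54 to 8.24% at 90 and 3.77 to 5.33% at 155 days, and 7 oligodendrocyte markers summed to 28879.5 to 54762 and 20603 to 25792 CPM. In WT mice the reactive astrocyte markers summed to 3551 to 5319 CPM at 90 days, above the 1962 to 2665 CPM of 155 days. The part of these shifts in the comparisons of ages was not tested.

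OKN-007 did not move any of the 7 genes past the threshold at either age or in either genotype. With edgeR's quasi-likelihood test 0% of all genes passed in WT and 0% in G93A mice at 90 days, and 0% in WT and 0% in G93A mice at 155 days. DESeq2 and the likelihood ratio test also called 0 of the 7. At an unadjusted p under 0.05 (edgeR's quasi-likelihood test), 1050 of 18899 genes passed in G93A and 769 in WT mice of 90 days. At 155 days 755 and 549 of 18675 passed. Of the 7 there was 1, Aqp4 in G93A mice of 90 days. Its log2 difference was 0.30 (0.07 to 0.54, edgeR adjusted p = 0.837), and at 155 days it was 0.19 (-0.03 to 0.42). In WT mice Aqp4 differed by 0.10 (-0.13 to 0.34) and -0.07 (-0.30 to 0.16). The widest intervals belonged to Gjb6, from -0.52 to 0.32 in G93A and -0.33 to 0.51 in WT mice of 155 days. For Atp1b2 and Aldh1l1 in G93A mice of 155 days the differences were -0.03 (-0.24 to 0.19) and -0.04 (-0.28 to 0.19). A difference that misses the threshold does not show that treated and untreated mice had the same level. The interaction of genotype and treatment was not past the threshold for any of the 7, nor for any other gene (0% at 90 and 0% at 155 days). It was 0.26 (-0.06 to 0.58) for Aqp4 at 155 days and 0.20 (-0.13 to 0.53) at 90 days.

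**Figure D5:**
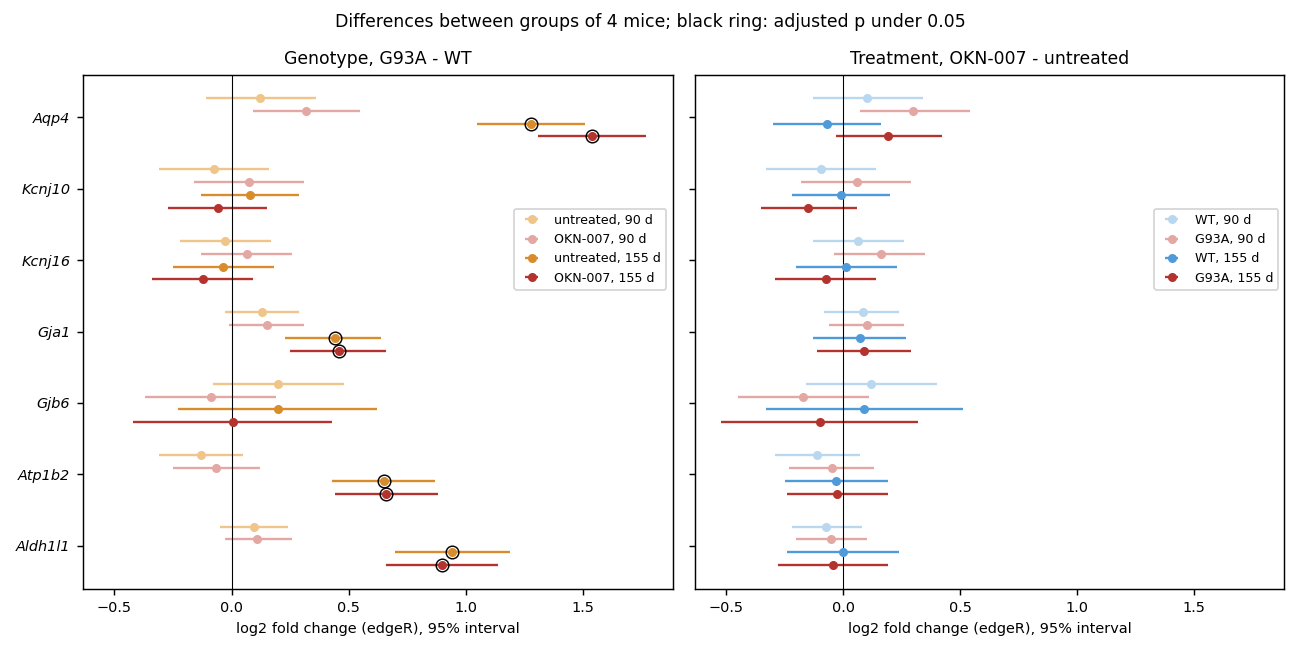
Log2 fold changes of the 7 genes with 95% intervals from edgeR, for G93A against WT mice (first panel) and for OKN-007 against untreated mice (second panel), by age; black rings mark adjusted p under 0.05. Rings appear on Aqp4, Gja1, Atp1b2 and Aldh1l1 in both comparisons of genotype at 155 days, with Aqp4 at 1.28 and 1.54, and on no gene in the comparisons of treatment.

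In WT mice the order of levels per kilobase of exon was Atp1b2 (median 268 CPM per kb, n = 16), Kcnj10 (116), Aqp4 (87.1), Gja1 (41.2), Gjb6 (31.0), Aldh1l1 (17.8) and Kcnj16 (14.3). The ranges over mice overlapped for Kcnj10 and Aqp4 (99.8 to 148 and 69.2 to 114 CPM per kb), for Gja1 and Gjb6 (33.6 to 47.4 and 23.3 to 39.9) and for Aldh1l1 and Kcnj16 (15.8 to 21.0 and 12.3 to 17.0), and did not for the other neighbours in that order. In late G93A mice Aldh1l1 (median 34.1, 28.1 to 45.0 CPM per kb, n = 8) no longer overlapped Kcnj16 (13.6, 10.8 to 15.7) and reached into the range of Gjb6 (29.1, 25.7 to 55.0). These levels were divided by all annotated exons merged, 10.257 kb for Gja1 and 2.674 kb for Gjb6. The lengths of the transcripts present were not measured, so the order between genes also rests on the annotation.

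Across the 8 group means, the distance between patterns (root mean square of the difference in centred log2 CPM, over 19828 other genes) was smallest for Aqp4 with Trim12c (0.0566), Slc7a2 (0.0736) and Cybrd1 (0.0737). The 3 nearest to Atp1b2 were Irak2, Ptpn1 and Stk10 (0.0358 to 0.0445), and those to Aldh1l1 were Lrig1, Ampd3 and Sardh (0.0343 to 0.0411). For Gja1 they were Sorbs2, Rnf182 and Tmem251, at 0.0385 to 0.0428. Kcnj10, Kcnj16 and Gjb6 were nearest to Vps35l, Mbtps1 and Rbmxl1, to Fam168a, Elavl1 and Cnot7, and to Rpap2, Eif3m and Tmem177 (0.0213 to 0.0402). Within the set, the smallest distances were among Kcnj10, Kcnj16 and Gjb6 (0.0863 to 0.11), followed by that of Atp1b2 and Aldh1l1 (0.148), and Aqp4 was 0.524 from Kcnj10. With 8 group means these are descriptions of shape only.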

How the data were processed

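RNA was extracted with TRIzol from 25 mg of spinal cord per mouse and sequenced as stranded libraries (Illumina TruSeq). The authors deposited 1 table of raw counts per gene for 32 mice (8 groups of 4). How it was made is not settled: the study's methods name STAR and HTSeq on GRCm38, whereas the submitters' processing notes name STAR, featureCounts and edgeR with the builds GRCm39, mm39 and hg38, and the strand setting of the counting is not given in the sources used here. Symbols came from GENCODE M21 (GRCm38), which held 41203 of 42524 gene IDs (96.9%); 1321 IDs were not in it. Levels per kilobase use the merged exons of that annotation.

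Genes kept by filterByExpr were fitted with edgeR 4.0.16 (R 4.3.3), TMM factors and the quasi-likelihood test, with Benjamini-Hochberg adjustment over all genes tested. The 16 mice of an age were fitted together as 4 groups, and all 32 mice for comparisons between ages. SE and 95% intervals came from the same fit. Depth was 19701722 to 30138257 counts per mouse. The low-count floor (0.152 CPM in the smallest library) covers counting error only. The 95% intervals, taken from the quasi-likelihood fit, also include the spread between mice of a group. Replicate files were compared (0 identical pairs), and no source says that mice of a group were from separate litters, so p-values measure the spread between these samples. The fit was first tested on simulated data. DESeq2 1.42.0, a likelihood ratio test, other filters and scalings, a caudal Hox covariate, a replicate block and leaving out each mouse were the alternatives.

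The members and the lists were chosen with earlier results of these data known. Genes named were the 7 members, Gfap, Aif1, Chat and Sod1 as checks, the 4 with the largest change among those past the threshold in each list in untreated mice of 155 days, a set of partners named whatever their values (among them Atp1b1, Dtna, Mlc1, Hepacam, Gjb1 and Gjc3), and the 3 nearest patterns per member. Some genes of this rule are not reported here. Utrn was added for its tie with Dtnb, Sox9, Slc7a10, Aldoc, Glul, Fgfr3 and S100b were named from the astrocyte markers after their values were seen, and 4 non-coding genes because they overlap a member. Chat was at 21.8 against 30 CPM in G93A and WT untreated mice of 155 days (log2 fold change -0.41, edgeR adjusted p = 0.0025). Promoter windows were read from a set of RefSeq start sites (GRCm38.p6), which held entries for 5 of the 7 members.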

Additional observations from a re-analysis of the deposited data

Results flagged for a closer look

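A single mouse stood far from the 3 others of its group in 2 of 56 combinations of gene and group, where chance gives about 1 in 20. Gjb6 was at 147 CPM in G93A untreated replicate 11 of 155 days and next highest at 75.6 CPM, a gap of 0.912 of the group's range. Gja1 was at 486 CPM in WT OKN-007 replicate 8 of 90 days and next highest at 443 CPM, a gap of 0.853 of the range. Both gaps are above Dixon's 95% critical value for 4 mice.

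The G93A change differed between 155 and 90 days for 3 of the 7 genes, by a test of the difference itself over 32 mice (edgeR's quasi-likelihood test). Of all 19829 genes tested, 21.2% passed in untreated and 23% in OKN-007 mice. On the log2 scale the change of Aqp4 was larger at 155 days by 1.15 in untreated and 1.19 in OKN-007 mice. That of Aldh1l1 was larger by 0.84 and 0.75, and that of Atp1b2 by 0.77 and 0.69. All 4 G93A mice of each late group lay above all WT mice of the same treatment and age for these 3 genes. At that age the groups did not overlap, in either direction, for 33.3% of all genes in untreated and 45.4% in OKN-007 mice.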

How the results depend on the processing

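For the 7 genes, 976 values under other settings and 2236 with 1 mouse left out kept their side of the threshold, 4 and 4 more came past it, and none was lost. The sign changed in 167 of these 3220 values, none of them past the threshold in either fit and none larger than 0.23 on the log2 scale. Among them were Gjb6 (0.20 to -0.12 without G93A untreated replicate 11) and Kcnj10 (0.078 to -0.083 with the Hox covariate) in untreated mice of 155 days. Those 8 were Gja1 and Kcnj10 between ages. For Gja1 the untreated age difference was 0.41 with the Hox covariate (edgeR adjusted p = 0.0178), 0.38 without G93A untreated replicate 9 of 155 days (0.02) and 0.34 without WT untreated replicate 4 of 155 days (0.05). Its OKN-007 age difference was 0.40 with the Hox covariate (0.0202) and 0.27 with only the groups compared (0.0266). Its change from 90 to 155 days in G93A mice was 0.24 with the Hox covariate (0.03) and 0.24 without replicate 9 (0.0327), and that of Kcnj10 was 0.36 without replicate 12 of 90 days (0.0159). The causes were not tested.

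Counts over all genes moved more. With the Hox covariate, genotype at 155 days gave 4499 genes untreated (7378 without it), 4988 treated (7747) and 6090 averaged (10211), and the interaction gave 2. Without a filter on low counts, OKN-007 at 155 days gave 17 genes in G93A and 10 in WT mice and the interaction 8; at 90 days genotype gave 39, 24 and 110, OKN-007 gave 8 in G93A and 14 in WT mice, and the interaction 3. DESeq2 gave 3 for OKN-007 in WT mice and 3 for the interaction at 155 days, and 15, 1 and 58 for genotype at 90 days; the likelihood ratio test gave 4, 3, 11, 3 and 64. All 32 mice in one fit gave 2, 1, 1 (untreated) and 21 (averaged) for the same comparisons. A minimum of 10 counts gave 2 for averaged genotype at 90 days, and only the groups compared gave 3 for treated mice. With each mouse left out in turn, the counts ran from 0 to 3 for OKN-007 in WT mice and 0 to 1 for the interaction at 155 days, 0 to 4 for untreated and 3 to 54 for averaged genotype at 90 days (54 without G93A untreated replicate 12), and 3115 to 6035 for 155 against 90 days in WT mice (4933 with all; 3115 without WT untreated replicate 4 of 90 days).

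With a replicate block the age differences gave 4197 (4211 without it) and 4624 (4557) genes, and 155 against 90 days gave 4824 (4933) in WT and 6473 (6687) in G93A mice; no call on the 7 genes changed. The numbers are shared only between ages, and the deviations of same-numbered mice correlated at -0.215 to 0.133 (over 0.1 for 2 of 16), with 3 of 16 closest to their own number, so the numbers were not taken to pair mice.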
